A study of Mus musculus with 12 samples.

Results

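Oxidative phosphorylation was followed in macrophage RNA through 89 nuclear genes of the respiratory chain and of the mitochondrial ATP synthase, out of 37620 gene rows in the count table. Members were the protein-coding genes whose symbols begin with Nduf, Uqcr, Cox4i, Cox5, Cox6, Cox7, Cox8 or Atp5; 11 rows with such symbols that are pseudogenes or not protein-coding were left out. By role they comprise 38 subunits and isoforms of complex I, 8 Ndufaf assembly factors of complex I, 8 subunits of complex III, 18 subunits and isoforms of complex IV and 17 genes of complex V. Of the 89, 85 had enough reads to be tested, all but Cox4i2, Cox7b2, Cox8b and Cox8c.

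Complex I takes electrons from NADH, complex III passes them from ubiquinol to cytochrome c, and complex IV hands them to oxygen. Complexes I, III and IV pump protons across the inner mitochondrial membrane, and complex V uses the returning protons to make ATP. Most subunits are made from nuclear genes and imported, a smaller number are made from mitochondrial DNA, and a few exist as isoforms that belong to particular tissues or to low oxygen. In macrophages the use of this pathway relative to glycolysis differs between activation states, and low oxygen is known to lower the use of the chain in many cells.

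The cells were primary macrophages grown for 7 days from the bone marrow of C57BL/6 mice, with no genetic change described. They were kept in normoxia or in 1% oxygen (hypoxia in the labels, low oxygen here), with 25 mM sodium lactate or with 25 mM NaCl as the sodium control, giving 4 groups of 3 libraries. The labels name no sort, so other bone marrow cells may remain. Polyadenylated RNA was sequenced on an Ion Proton instrument. Nothing in the labels ties a library to its own mouse or culture, so a p-value here weighs a difference against the spread of the sequenced libraries, which may be technical. In RNA from whole cultures, fewer cells of a type and less RNA per cell cannot be told apart, and RNA levels are not amounts of protein or respiration.

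Libraries held 22705978 to 49885085 reads counted in genes. Levels are given as CPM, read counts scaled to a common library total, after TMM scaling, which balances libraries on most genes. A list of 10 macrophage marker genes summed to between 33695 and 49504 CPM, with all 10 detected in every group. Lists of markers of lymphocytes, dendritic cells and erythroid cells each summed to at most 4.44 CPM, of neutrophils to at most 51.5 CPM and of fibroblasts to at most 100.3 CPM. Markers of osteoclasts, which arise from the same precursors, summed to 290 to 695 CPM in low oxygen with lactate and to 95.8 to 235 CPM in the other 9 libraries, and their part in the results below was not tested. A check of the labels used 8 oxygen-responsive genes. At an edgeR adjusted p below 0.05, 5 were higher in low oxygen with NaCl and 6 in low oxygen with lactate. At that threshold 0 were lower in either.

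A pair of libraries stood apart in the members, and each result that rests on them is given with and without them. In normoxia with NaCl, replicate 1 held 66 of 85 members above all of the 10 remaining libraries, a count that was not made for all genes. In it 23 members (27.1%) were over 2-fold above their mean log2 level in those 10 libraries, and 0 were over 2-fold below. Of the 10052 genes of at least 5 CPM, 372 lay as far above theirs and 578 as far below, together 9.45%. In low oxygen with lactate, replicate 3 scattered in both directions. There 19 members were over 2-fold higher and 24 over 2-fold lower than that mean, together 50.6%, against 45.2% of the same genes. Its TMM factor was 0.742, against 0.864 for replicate 1 of normoxia with NaCl and 1.01 to 1.10 for the other 10 libraries. These libraries also held the lowest and the highest share of mitochondrially encoded reads, 0.486% and 4.75%, against 2.04% to 3.51% in the others; the part of this in the results was not tested.

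**Figure D1:**
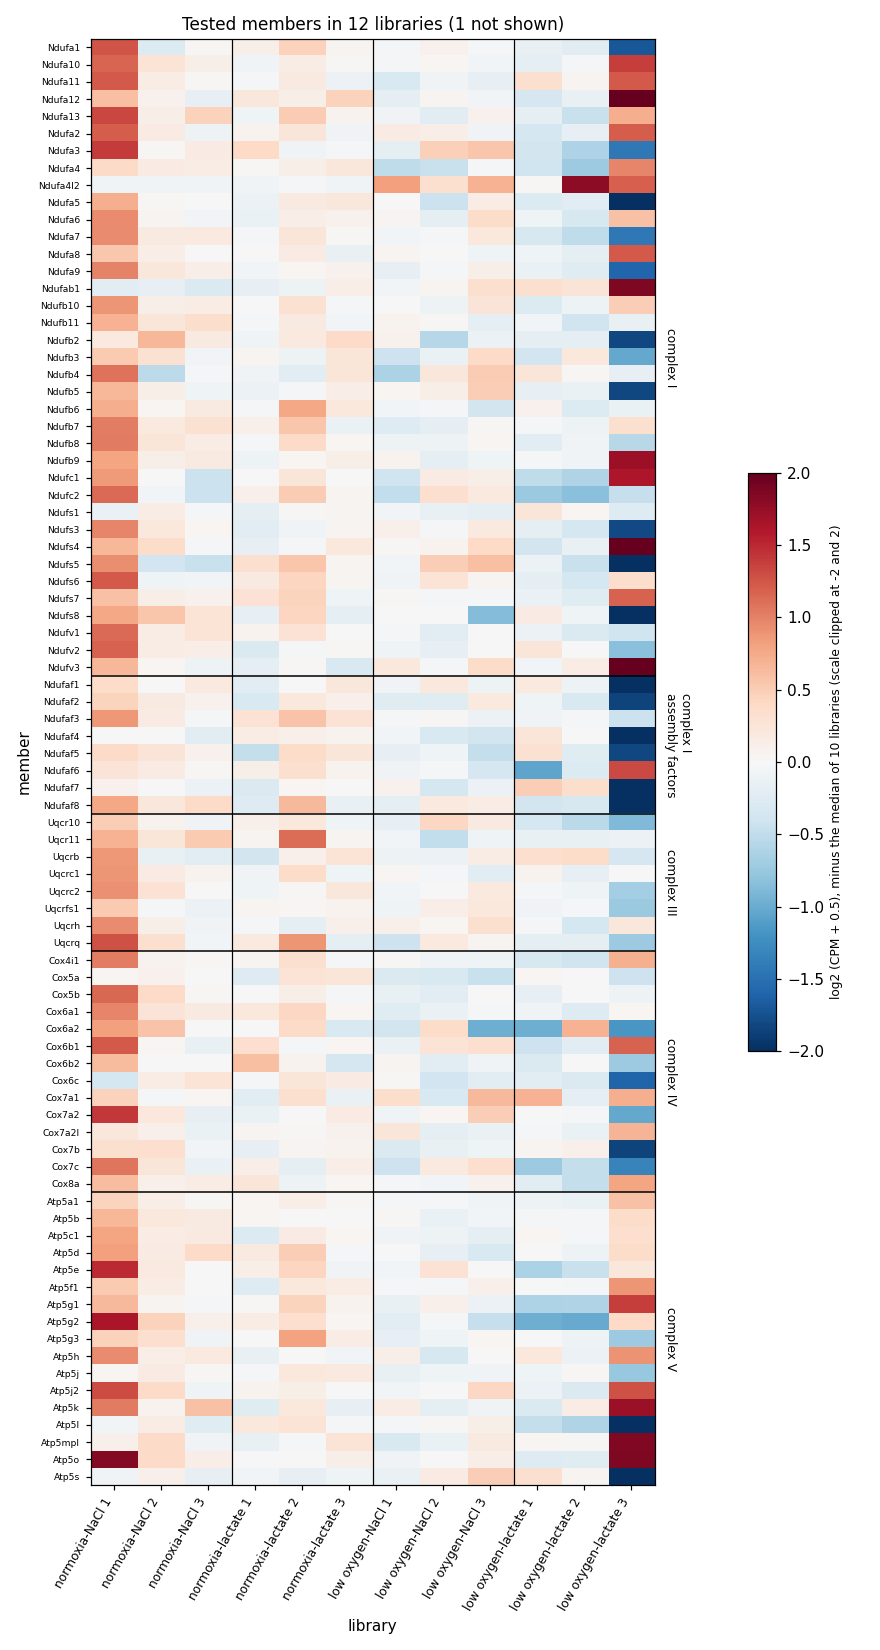
Heat map of the 85 tested members, 1 of them not shown (rows, grouped by complex), in the 12 libraries (columns); colour gives log2 (CPM + 0.5) minus the median of 10 libraries, clipped at -2 and 2. Replicate 1 of normoxia with NaCl is red in most rows, with 66 members above the other 10 libraries, a count not made for all genes. Replicate 3 of low oxygen with lactate mixes dark red and dark blue. Against the mean log2 level of those 10 libraries, 19 members were over 2-fold up and 24 over 2-fold down in it.

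Across the other 10 libraries the members varied about as much as other genes. Their median coefficient of variation over these libraries of all 4 groups was 15.2%, for the 76 members of at least 5 CPM, against 14.9% for all genes of that level. Atp5a1 and Atp5b, the alpha and beta subunits that form the catalytic head of complex V, varied by 6.30% and 7.48%, and Uqcrfs1, the Rieske iron-sulfur protein of complex III, by 7.34%. Among members above 5 CPM the most variable were Uqcr11, a small complex III subunit, at 36.8%, and Atp5g2, a gene for the c subunit of complex V, at 31.97%.

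Members held a small share of all counts, with lower group means in low oxygen than in normoxia. It was 0.633% ± 0.108 (SD, n = 3) in normoxia with NaCl, 0.545% ± 0.035 in normoxia with lactate, 0.503% ± 0.013 in low oxygen with NaCl and 0.486% ± 0.029 in low oxygen with lactate. Replicate 1 of normoxia with NaCl, at 0.750%, set the top of the first group, whose other libraries held 0.609% and 0.539%. Every library of low oxygen with NaCl, at 0.489% to 0.514%, was below every library of normoxia with NaCl. After TMM scaling the summed level was 8683, 5528 and 5206 CPM in normoxia with NaCl, 4810, 4725 and 4957 CPM in low oxygen with NaCl, 5014, 5764 and 5039 CPM in normoxia with lactate and 4592, 4400 and 7001 CPM in low oxygen with lactate. Replicate 3 of low oxygen with lactate was the highest of its group on both scales, but its unscaled share, 0.520%, was close to that of the other libraries.

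The proportions of the complexes differed little, although some groups did not overlap. In the 10 libraries that did not stand apart, complex I took 30.4% ± 0.461 (SD over 10 libraries) of the members' counts, its assembly factors 1.10% ± 0.0958, complex III 9.64% ± 0.417, complex IV 23.7% ± 0.801 and complex V 35.2% ± 0.662. These shares depend on the number and length of the genes and are compared only across libraries. Complex V took 35.5% to 37.2% in low oxygen with lactate, above 34.7% to 34.9% in normoxia with lactate and 33.9% to 35.2% in low oxygen with NaCl. In low oxygen with lactate complex I, at 30.5% to 33.7%, was above its 29.7% to 30.2% in normoxia with lactate. Complex IV took 22.7% to 23.3% in low oxygen with lactate, below 23.8% to 24.3% in low oxygen with NaCl. These differences were not tested. Replicate 1 of normoxia with NaCl, although high in total, held 31.4% complex I, 9.71% complex III, 24.0% complex IV and 34.0% complex V. Replicate 3 of low oxygen with lactate held only 5.58% complex III and 0.268% assembly factors, below the range of the other 11 libraries, and 33.7% complex I and 37.2% complex V, above it.

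**Figure D2:**
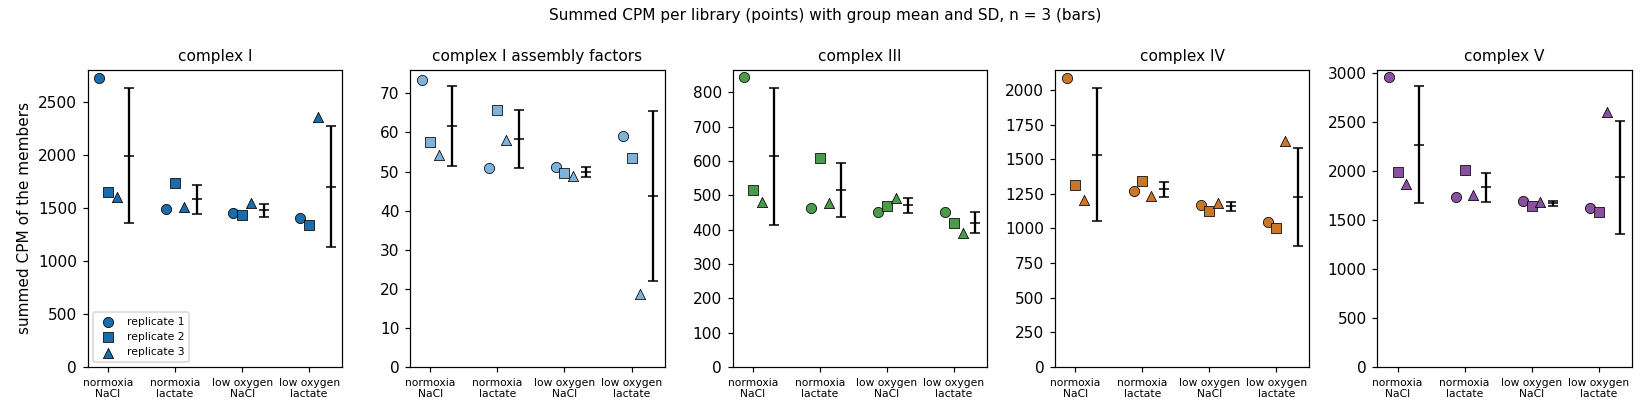
Summed CPM of the members of each complex in each library (points, with shape giving the replicate number) and the group mean with SD (bars, n = 3). In each panel replicate 1 of normoxia with NaCl is the highest point, for example 2725 CPM in complex I, and in complexes I, IV and V replicate 3 of low oxygen with lactate lies apart from its group.

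Per kilobase of merged exon length, which allows levels to be compared between genes, the most abundant members were complex IV subunits. Medians over the 12 libraries were 243 CPM per kilobase for Cox6a1, 225 for Cox4i1 and 185 for Cox8a. Complex V followed with Atp5a1 at 123 and Atp5b at 108, complex I with Ndufa2 at 115, and complex III with Uqcr11 at 89.7 and Uqcr10 at 65.8. The assembly factors, which act on complex I during its construction and do not stay in it, were led by Ndufaf3 at 6.31 and Ndufaf8 at 5.71. Lengths merge all annotated transcripts and so understate the level of genes with long minor transcripts.

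In CPM, Atp5a1 was at 518, 418 and 387 in normoxia with NaCl, 391, 419 and 385 in normoxia with lactate, 375, 370.2 and 363 in low oxygen with NaCl and 356, 347 and 571 in low oxygen with lactate. Apart from replicate 1 of normoxia with NaCl and replicate 3 of low oxygen with lactate, Atp5a1 stayed between 347 and 419 CPM; low oxygen with NaCl did not overlap either normoxia group, while low oxygen with lactate did through replicate 3. Atp5b measured 711, 521 and 510.0 CPM in normoxia with NaCl, 464, 453 and 445 in normoxia with lactate, 458, 411 and 434 in low oxygen with NaCl and 438, 436 and 577 in low oxygen with lactate. Atp5b was lower in every library of low oxygen with NaCl than in every library of normoxia with NaCl, and in lactate only replicate 3 of low oxygen exceeded normoxia. The libraries held Ndufa2 at 142, 68.9 and 57.3 CPM in normoxia with NaCl, 64.2, 72.2 and 58.4 in normoxia with lactate, 68.6, 67.2 and 58.4 in low oxygen with NaCl and 47.9, 54.6 and 142 in low oxygen with lactate. Ndufa2, a small accessory subunit of complex I, was at 142 CPM in both libraries that stand apart and at most 72.2 CPM elsewhere.

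In low oxygen without lactate the members leaned lower. The median log2 fold change was -0.39 over the 85 tested members, against 0.01 over all 14616 tested genes, and 79 of 85 were negative. By complex it was -0.39 for complex I, -0.36 for the assembly factors, -0.34 for complex III, -0.40 for complex IV and -0.42 for complex V. No member, a count of 0, passed an adjusted p of 0.05, where 0.281% of all genes did. The test was edgeR's quasi-likelihood test, adjusted over all genes by Benjamini and Hochberg's method. Its unadjusted p was below 0.05 in 14 of 85 members, 13 of them lower. Of all 14616 genes, 481 were higher and 467 lower at that level. DESeq2 and limma-voom also called 0 members, where they called 1.05% and 0.294% of all genes. With quality weights limma-voom called 2, Ndufa4 lower and Ndufa4l2 higher, against 3.59% of all genes. Ndufa4l2 passed the count filter only through its low oxygen libraries. Its calls and its place among members wholly above are therefore not independent support, here or below. In 35 of 85 members every low oxygen library was below every normoxia library, where 12% of all genes were, and in 2 every one was above, where 12.8% were.

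This lean depends on replicate 1 of normoxia with NaCl. With limma-voom's quality weights the median was -0.19. Without that library the median was -0.14, with 62 of 85 negative; complex I was at -0.11, complex III at 0.01, complex IV at -0.14 and complex V at -0.22, so that complex III no longer leaned either way. With replicate 3 of low oxygen with lactate also left out, 37 of 85 members lay wholly below, where 16.5% of all genes did. In that fit edgeR called 0 members, where 1.23% of all genes were called. It gave 18 members at an unadjusted p below 0.05. That count was not set against all genes here, so it is not read as particular to the members. The library numbers were taken to pair the samples in this contrast, which the labels do not state. With the number as a block edgeR called 0 members, where 0.281% of all genes were called. The block without replicate 3 of low oxygen with lactate called Atp5d, Atp5g2 and Ndufs8 lower, where 5.08% of all genes were called.

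For Cox6a1 the values were 329, 199 and 189 CPM in normoxia with NaCl, 193, 221 and 170.1 in normoxia with lactate, 139.8, 152 and 163 in low oxygen with NaCl and 159, 139 and 171 in low oxygen with lactate. All 3 low oxygen libraries with NaCl lay below the 3 normoxia libraries with NaCl. Cox6a1 is the common isoform of a regulatory complex IV subunit, and its log2 fold change was -0.66 (SE 0.22; edgeR adjusted p = 0.526). In CPM, Cox5b was at 83.0, 48.5 and 37.8 in normoxia with NaCl, 37.3, 40.3 and 36.7 in normoxia with lactate, 33.2, 31.5 and 36.9 in low oxygen with NaCl and 33.0, 37.4 and 34.4 in low oxygen with lactate. Cox5b, the zinc-binding subunit of complex IV, likewise did not overlap between the NaCl groups, although the nearest libraries were close, and the highest value again belongs to replicate 1 of normoxia with NaCl. Atp5d measured 241, 152 and 177 CPM in normoxia with NaCl, 154, 193 and 134 in normoxia with lactate, 137, 122 and 110.1 in low oxygen with NaCl and 136, 127 and 176 in low oxygen with lactate. Atp5d, the delta subunit of the rotating stalk of complex V, did not overlap between the NaCl groups and had a log2 fold change of -0.63 (SE 0.22; edgeR adjusted p = 0.555). The libraries held Uqcr11 at 93.2, 67.7 and 82.6 CPM in normoxia with NaCl, 59.97, 125 and 59.97 in normoxia with lactate, 55.0, 40.5 and 54.3 in low oxygen with NaCl and 51.8, 51.7 and 52.7 in low oxygen with lactate. Uqcr11 also did not overlap between the NaCl groups, at -0.70 (SE 0.27; edgeR adjusted p = 0.662), and replicate 2 of normoxia with lactate lay far above every other library. For Ndufaf3 the values were 21.3, 12.9 and 11.3 CPM in normoxia with NaCl, 14.2, 17.2 and 14.0 in normoxia with lactate, 11.1, 11.6 and 10.5 in low oxygen with NaCl and 10.9, 11.3 and 8.37 in low oxygen with lactate. For Ndufaf3, the assembly factor with the smallest p here, the NaCl groups overlapped and the log2 fold change was -0.45 (SE 0.29; edgeR adjusted p = 0.906). In CPM, Ndufaf8 was at 8.500, 5.64 and 6.36 in normoxia with NaCl, 3.87, 7.71 and 4.22 in normoxia with lactate, 4.14, 5.46 and 5.31 in low oxygen with NaCl and 3.54, 3.68 and 0.0593 in low oxygen with lactate. Ndufaf8, the next most abundant assembly factor per kilobase, was far below all other libraries in replicate 3 of low oxygen with lactate.

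With lactate in both arms, the size of the lean depended on the libraries and on the scaling. The median was -0.13 over all members, with 51 of 85 negative, against -0.03 for all genes; it was -0.05 in complex I, -0.48 in the assembly factors, -0.30 in complex III, -0.26 in complex IV and 0.09 in complex V. The median over all members was -0.30 with upper-quartile and -0.075 with RLE size factors. Without replicate 3 of low oxygen with lactate the medians of the complexes spanned -0.27 to -0.14, and without both libraries that stood apart they were -0.24 over all members, -0.28 in complex I, -0.14 in the assembly factors, -0.15 in complex III, -0.26 in complex IV and -0.19 in complex V, and 67 of 85 were negative. Then 41 members lay wholly below their normoxia range, where 18.8% of all genes did. With all libraries edgeR called 0 members, where 0.226% of all genes were called. Its unadjusted p was below 0.05 in 13 of 85 members, 4 higher and 9 lower. Of all 14616 genes, 1360 were higher and 777 lower at that level, a similar share in total. Limma-voom called 0, where it called 0.274% of all genes, and DESeq2 called Ndufa4l2 alone, where it called 2.99%. The weighted limma-voom fit called Ndufa4l2 higher and Ndufa4 and Atp5g2 lower, where it called 5.04%. Groups did not overlap in 20 members that were lower, where 11.3% of all genes were, and in 2 that were higher, where 8.23% were.

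**Figure D3:**
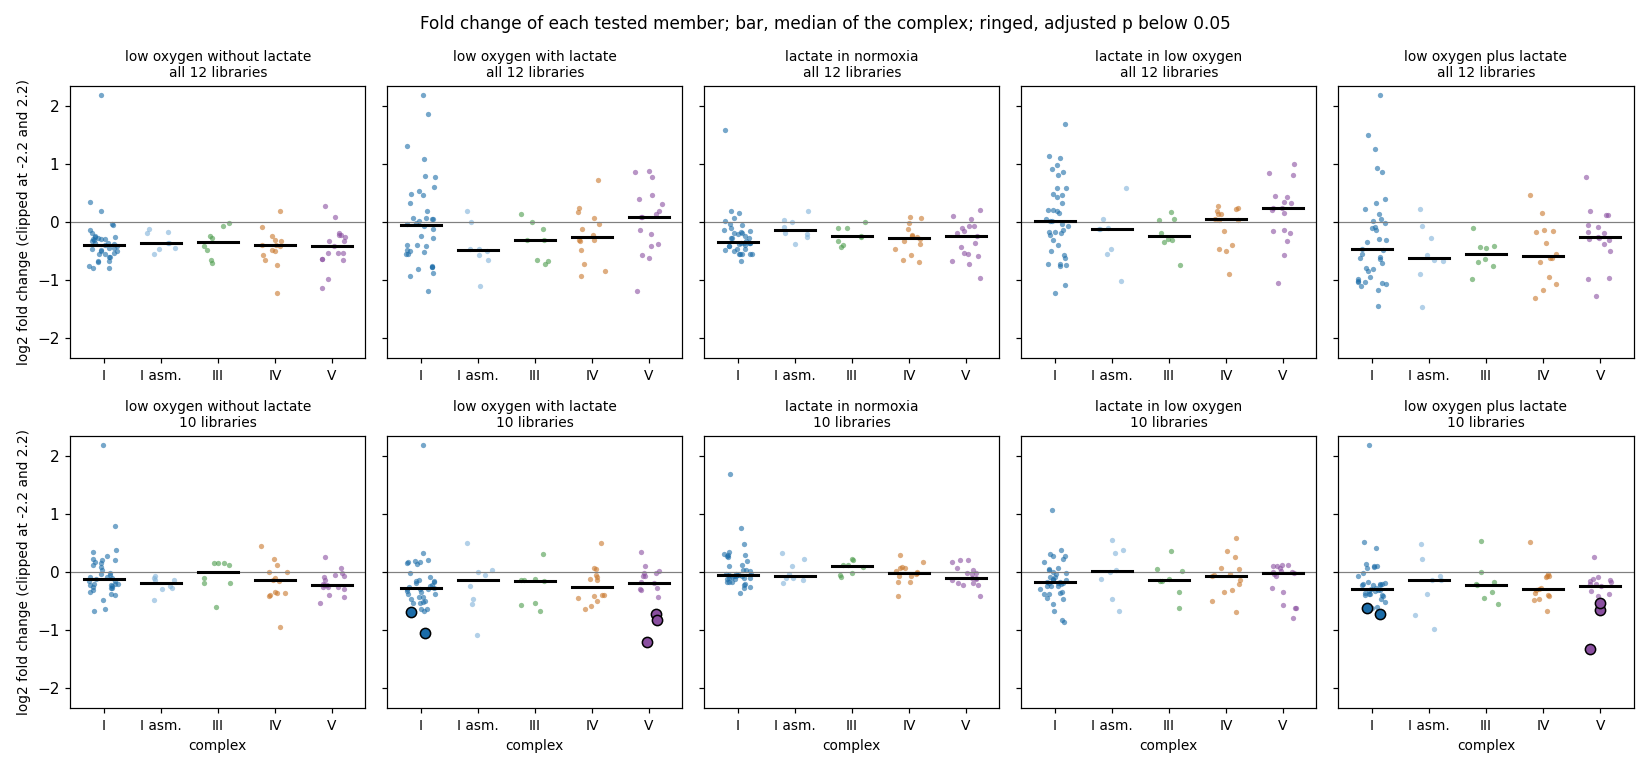
Log2 fold change of every tested member (points) by complex in 5 comparisons, from the fit on 12 libraries (upper row) and on the 10 that did not stand apart (lower row); bars are medians and ringed points have an adjusted p below 0.05. The complex V median moves from 0.09 to -0.19 in low oxygen with lactate between the rows, and ringed points occur only in the lower row, in 2 comparisons.

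With both libraries left out, 5 members were lower in low oxygen with lactate against normoxia with lactate, 3 of complex V and 2 counted under complex I, where 0.945% of all genes were called lower. That fit compares 2 libraries with 3, and the spread is shared over the 4 groups. The libraries left out were picked from these same data, in which they stood apart in the members. In each of the 5, the library left out of low oxygen with lactate was the highest of its group. These calls are therefore not independent of that choice. It called 0 members higher. The block without replicate 3 of low oxygen with lactate called Atp5g2 alone, where 1.73% of all genes were called. The library numbers were not taken to pair libraries in this contrast, as the deviations of same-numbered libraries had correlations of 0.11, 0.075 and -0.061. In the fit without both, 28 members were lower and 2 higher at an unadjusted p below 0.05. Those counts were not set against all genes here, so they are not read as particular to the members.

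Atp5g1, Atp5g2 and Atp5g3 encode the same mature c subunit, which forms the proton-carrying ring of complex V, with different import sequences. Atp5g2 measured 80.2, 35.2 and 27.3 CPM in normoxia with NaCl, 28.2, 32.2 and 26.2 in normoxia with lactate, 22.0, 24.8 and 18.3 in low oxygen with NaCl and 12.8, 12.3 and 33.8 in low oxygen with lactate. Atp5g2 was lowest in replicates 1 and 2 of low oxygen with lactate, next lowest in low oxygen with NaCl, and at 26.2 CPM or more in all 6 normoxia libraries; replicate 3 of low oxygen with lactate was at 33.8 CPM, inside the normoxia range. In the fit on all libraries its log2 fold change in lactate was -0.56 (edgeR adjusted p = 0.558), and without both libraries it was -1.21 (SE 0.18; edgeR adjusted p = 0.00585).

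The libraries held Atp5g1 at 46.8, 30.9 and 29.3 CPM in normoxia with NaCl, 29.9, 40.4 and 31.1 in normoxia with lactate, 26.6, 31.7 and 27.3 in low oxygen with NaCl and 19.2, 19.3 and 77.8 in low oxygen with lactate. Atp5g1 was likewise lowest in replicates 1 and 2 of low oxygen with lactate, but replicate 3 was the highest of all 12 libraries, and low oxygen with NaCl overlapped normoxia. Its log2 fold change in lactate was 0.19 with all libraries (edgeR adjusted p = 0.859) and -0.82 (SE 0.16; edgeR adjusted p = 0.0220) without both. For Atp5g3 the values were 171, 158 and 118 CPM in normoxia with NaCl, 126, 217 and 138 in normoxia with lactate, 111, 117 and 128 in low oxygen with NaCl and 123, 116 and 74.7 in low oxygen with lactate. For Atp5g3 the lowest library was instead replicate 3 of low oxygen with lactate, and replicates 1 and 2 lay within the range of low oxygen with NaCl. Per kilobase Atp5g3 supplied 67.0% ± 8.14 (SD, n = 3) of the 3 genes' sum in normoxia with NaCl, where replicate 1 was at 57.7%, and 74.3% ± 3.395 in low oxygen with NaCl. In low oxygen with lactate it supplied 71.4% ± 19.6, with replicate 3 at 48.8%.

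The promoters of the members called in both low oxygen contrasts with lactate once the 2 libraries were left out, Atp5g2, Atp5g1 and Ndufa4, are shown because these genes were low in the same 2 libraries, which both contrasts share. They are the RefSeq sequences of GRCm38.p6, 250 bases before to 50 after the start, read 5′ to 3′ on the gene's strand, which is minus for all of them. Capitals mark matches on either strand to GCGCATGC (NRF1) and to ACGTG, the core of hypoxia response elements; AAGATGGC (YY1) and CCGGAAG (ETS and GABP factors) were also searched and have no match in them. The GCGCATGCGC run in Atp5g2 is 2 overlapping matches, 1 on each strand, as is CACGTG in Atp5g1. Atp5g2 lies at chr15:102670998-102671297, Atp5g1 at chr11:96075582-96075881 and Ndufa4 at chr6:11907401-11907700.
Atp5g2: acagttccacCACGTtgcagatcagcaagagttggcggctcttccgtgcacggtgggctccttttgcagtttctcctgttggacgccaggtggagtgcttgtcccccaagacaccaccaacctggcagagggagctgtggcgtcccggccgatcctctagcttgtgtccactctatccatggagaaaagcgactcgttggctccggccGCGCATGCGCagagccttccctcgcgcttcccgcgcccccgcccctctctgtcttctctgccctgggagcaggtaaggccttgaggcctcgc
Atp5g1: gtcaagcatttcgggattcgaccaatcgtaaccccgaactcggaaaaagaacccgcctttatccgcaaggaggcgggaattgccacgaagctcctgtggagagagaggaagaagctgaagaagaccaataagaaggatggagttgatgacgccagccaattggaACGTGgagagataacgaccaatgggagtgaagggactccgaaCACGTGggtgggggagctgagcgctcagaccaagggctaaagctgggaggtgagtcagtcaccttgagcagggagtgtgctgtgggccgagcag
Ndufa4: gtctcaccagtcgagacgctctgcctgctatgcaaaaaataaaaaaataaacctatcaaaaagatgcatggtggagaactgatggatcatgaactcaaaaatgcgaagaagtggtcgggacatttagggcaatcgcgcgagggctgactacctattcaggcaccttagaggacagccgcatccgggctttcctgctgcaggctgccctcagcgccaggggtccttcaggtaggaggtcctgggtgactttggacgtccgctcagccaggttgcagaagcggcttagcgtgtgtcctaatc

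The motifs of factors known to act on nuclear mitochondrial genes were found in a larger share of member promoters than of all promoters. All promoters were used without limiting them to protein-coding or expressed genes, so the larger share may not be particular to the members. Of 73 members with an entry, matched by symbol or older symbol, GCGCATGC was in 11 (15.1%), against 3.05% of 27025 genes with promoters of this length. AAGATGGC was in 11 (15.1%), against 3.19%, and CCGGAAG in 16 (21.9%), against 9.93%. ACGTG was in 18 (24.7%), close to the 21.8% of all genes; by complex it was in 6 of 33 promoters of complex I and 7 of 15 of complex V. A match is only a run of letters, and the absence of all 4 from the Ndufa4 window says nothing about factors that act on that gene.

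In CPM, Atp5e was at 251, 101 and 88.9 in normoxia with NaCl, 95.7, 119 and 84.1 in normoxia with lactate, 85.3, 108 and 87.9 in low oxygen with NaCl and 57.1, 64.7 and 103 in low oxygen with lactate. Atp5e, the epsilon subunit of the central stalk, was lowest in replicates 1 and 2 of low oxygen with lactate, with the remaining group overlap set by replicate 3. Its log2 fold change in lactate was -0.41 (edgeR adjusted p = 0.606) with all libraries and -0.72 (SE 0.16; edgeR adjusted p = 0.0432) without both. Ndufc2 measured 44.6, 19.3 and 14.9 CPM in normoxia with NaCl, 21.6, 28.8 and 21.0 in normoxia with lactate, 14.2, 25.5 and 23.1 in low oxygen with NaCl and 11.9, 11.1 and 14.5 in low oxygen with lactate. Ndufc2, a small membrane subunit of complex I, was at 14.5 CPM or below in all 3 libraries of low oxygen with lactate and at 21.0 CPM or above in all 3 of normoxia with lactate. The log2 fold change was -0.93 (edgeR adjusted p = 0.309) with all libraries and -1.06 (SE 0.25; edgeR adjusted p = 0.0487) without both; replicate 1 of low oxygen with NaCl, at 14.2 CPM, and replicate 3 of normoxia with NaCl, at 14.9 CPM, were as low.

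**Figure D4:**
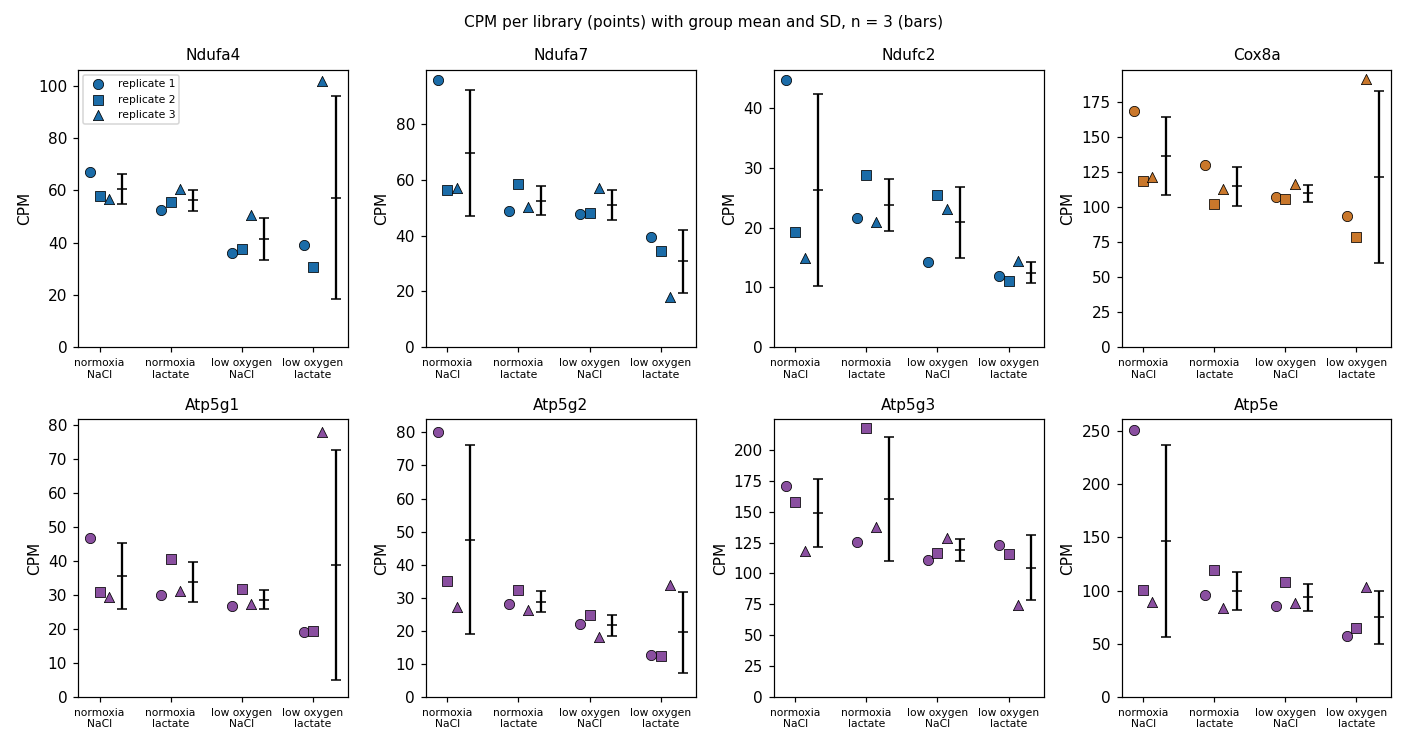
CPM of 8 members in each library (points, shape giving the replicate number) with the group mean and SD (bars, n = 3). Cox8a, Atp5g1, Atp5g2 and Atp5e have replicates 1 and 2 of low oxygen with lactate at the bottom and replicate 3 well above them, as for Atp5g1 at 19.2, 19.3 and 77.8 CPM.

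Low oxygen and lactate together were set against normoxia with NaCl, which shares its normoxia libraries with the first contrast and its low oxygen libraries with the second. The median was -0.43 with 67 of 85 negative, against -0.01 for all genes, and by complex -0.47, -0.62, -0.54, -0.58 and -0.26 for complex I, the assembly factors, and complexes III, IV and V. EdgeR called 0 members, where 1.61% of all genes were called, with a smallest adjusted p of 0.0607, that of Ndufa4l2. Its unadjusted p was below 0.05 in 22 of 85 members, 20 of them lower. Of all 14616 genes, 1724 were higher and 1303 lower at that level. DESeq2 called 11 members, 2 higher and 9 lower, where it called 9.92% of all genes; limma-voom called 0, where 1.67% were called, and with quality weights 4, where 7.38% were. Groups did not overlap in 24 members that were lower, where 11.2% of all genes were, and in 2 that were higher, where 9.39% were.

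Without replicate 3 of low oxygen with lactate edgeR called 7 members, where 6.86% of all genes were called in either direction. Ndufa4l2 was higher, with the limit of the count filter given above. Ndufa4, Ndufa7, Ndufb11, Cox8a, Atp5g1 and Atp5g2 were lower. Without both libraries edgeR called 5, all lower, where 2.83% of all genes were: Ndufa4, Ndufa7, Atp5g1, Atp5g2 and Atp5o, the stalk subunit known as OSCP. The libraries held Atp5o at 169, 60.8 and 51.6 CPM in normoxia with NaCl, 46.7, 46.9 and 50.8 in normoxia with lactate, 44.4, 46.6 and 51.1 in low oxygen with NaCl and 39.0, 39.4 and 171 in low oxygen with lactate. Atp5o was highest in the 2 libraries that stand apart. The fit without both sets 2 libraries against 2, and the median was then -0.27. As above, the libraries left out were picked from these same data, so these calls are not independent of that choice. With the number as a block and without replicate 3 of low oxygen with lactate, 19 members were called, where 14% of all genes were. The numbers were not taken to pair libraries in this contrast, as the deviations of same-numbered libraries had correlations of -0.075, 0.37 and 0.089.

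For Ndufa7 the values were 95.5, 56.2 and 57.0 CPM in normoxia with NaCl, 48.8, 58.4 and 50.3 in normoxia with lactate, 47.8, 48.1 and 57.1 in low oxygen with NaCl and 39.6, 34.6 and 18.0 in low oxygen with lactate. Ndufa7, an accessory subunit of complex I, was below its range of every other group in all 3 libraries of low oxygen with lactate. Its log2 fold change against normoxia with NaCl was -1.18 (SE 0.29; edgeR adjusted p = 0.0659) with all libraries and -0.61 (SE 0.14; edgeR adjusted p = 0.0302) without both. For Atp5g2 the same contrast gave -1.28 (edgeR adjusted p = 0.138) with all libraries and -1.32 (SE 0.19; edgeR adjusted p = 0.00289) without both.

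Lactate in normoxia left the members close to their level with NaCl once replicate 1 of normoxia with NaCl was set aside. The median log2 fold change was -0.25 with that library, with 72 of 85 negative, and -0.03 without it, with 50 negative; complex I went from -0.34 to -0.05, complex III from -0.24 to 0.10, complex IV from -0.28 to -0.01 and complex V from -0.25 to -0.09. EdgeR, DESeq2, limma-voom and its weighted form each called 0 members, where they called 0%, 0.0684%, 0% and 0.0753% of all genes. The unadjusted edgeR p was below 0.05 in 2 of 85 members, which were lower. Of all 14616 genes, 88 were higher and 139 lower at that level. Groups did not overlap in 6 members that were lower, where 6.16% of all genes were, and in 1 that was higher, where 5.6% were.

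Cox5b, whose values stand above, had the smallest p of complex IV in this contrast, a log2 fold change of -0.57 (SE 0.25; edgeR adjusted p = 1.0), and the groups overlapped. In CPM, Ndufb11 was at 86.6, 62.6 and 68.1 in normoxia with NaCl, 52.1, 60.5 and 51.3 in normoxia with lactate, 55.5, 54.2 and 46.4 in low oxygen with NaCl and 51.4, 40.1 and 47.9 in low oxygen with lactate. Ndufb11, an accessory subunit of the membrane arm of complex I, was lower in all 3 lactate libraries of normoxia than in all 3 NaCl libraries, at a log2 fold change of -0.41 (SE 0.19; edgeR adjusted p = 1.0). Uqcrh measured 146, 81.9 and 72.0 CPM in normoxia with NaCl, 74.2, 66.7 and 81.6 in normoxia with lactate, 81.9, 77.6 and 94.5 in low oxygen with NaCl and 74.0, 59.7 and 88.8 in low oxygen with lactate. The groups overlapped for Uqcrh, the hinge protein of complex III, at -0.43 (SE 0.26; edgeR adjusted p = 1.0). The libraries held Atp5c1 at 175, 112 and 114 CPM in normoxia with NaCl, 82.8, 112 and 104 in normoxia with lactate, 96.2, 93.5 and 87.7 in low oxygen with NaCl and 104, 98.1 and 127 in low oxygen with lactate. They also overlapped for Atp5c1, the gamma subunit that turns in the head of complex V, at -0.42 (SE 0.21; edgeR adjusted p = 1.0), and for the assembly factor Ndufaf2, at -0.25 (SE 0.48; edgeR adjusted p = 1.0). For Ndufaf2 the values were 6.35, 5.21 and 4.83 CPM in normoxia with NaCl, 3.56, 5.33 and 4.87 in normoxia with lactate, 3.73, 3.76 and 5.27 in low oxygen with NaCl and 4.23, 3.56 and 0.890 in low oxygen with lactate. Ndufaf2 was below 1 CPM only in replicate 3 of low oxygen with lactate.

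Lactate in low oxygen gave a median of 0.04 with 40 of 85 negative, and -0.11 with 53 negative without both libraries that stood apart. With upper-quartile scaling it was -0.11 with all libraries, so no direction is given for the set. EdgeR called 0 members, as it called 0% of all genes. Its unadjusted p was below 0.05 in 9 of 85 members, 4 higher and 5 lower. Of all 14616 genes, 1068 were higher and 596 lower at that level, a similar share in total. DESeq2, limma-voom and weighted limma-voom also called 0 members, where they called 0.766%, 0% and 0.109% of all genes. Groups did not overlap in 10 members that were lower, where 9.3% of all genes were, and in 2 that were higher, where 6.69% were. In CPM, Uqcr10 was at 54.2, 40.3 and 36.6 in normoxia with NaCl, 41.4, 44.7 and 36.2 in normoxia with lactate, 34.4, 51.4 and 43.7 in low oxygen with NaCl and 30.1, 26.4 and 20.5 in low oxygen with lactate. Uqcr10, a small complex III subunit, had the smallest p of complex III here, with the 3 lactate libraries below the 3 NaCl libraries in low oxygen, at -0.75 (SE 0.23; edgeR adjusted p = 0.432).

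The interaction asks whether the oxygen difference itself changed with lactate. It had a median of 0.29 over all libraries and -0.07 without both that stood apart. EdgeR called 0 members, and 0% of all genes. Its unadjusted p was below 0.05 in 6 of 85 members, which were positive. Of all 14616 genes, 245 were positive and 252 negative at that level. DESeq2, limma-voom and weighted limma-voom called 0 members, where they called 0.00684%, 0% and 0.0137% of all genes. A difference between the oxygen effects with and without lactate was therefore not detected in any member.

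The 2 isoforms known from low oxygen were read at very low levels. Ndufa4l2, a relative of Ndufa4 known as an induced gene in low oxygen, had 0, 0 and 0 reads in normoxia with NaCl and 0, 1 and 0 in normoxia with lactate, but 21, 5 and 11 in low oxygen with NaCl and 1, 35 and 12 in low oxygen with lactate. It passed the count filter only through its low oxygen libraries. Summed over the group it was 12.2-fold higher in low oxygen with NaCl when a floor of 3 reads was set for normoxia with NaCl. The lower limit of the exact 95% interval of the ratio was 9.42, for counting error only. In lactate the ratio of 48 reads to 1 was 95.0 after scaling by library size (exact 95% interval 16.3 to 3830, for counting error only). All 6 low oxygen libraries, at 0.0344 to 1.31 CPM, were above all 6 normoxia libraries, at 0 to 0.0198 CPM. The lowest of these rests on 1 read, as does the only nonzero normoxia value.

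With the filter on low counts, the edgeR test of all genes did not call Ndufa4l2 with all libraries, with adjusted p = 0.377 without lactate, 0.169 with lactate and 0.0607 against normoxia with NaCl, where its fitted fold change has no bound. With no filter the adjusted p was 0.331, 0.138 and 0.0390 in these comparisons, so that it was called in the last, where 1.42% of all genes were called. Its exons overlap those of Shmt2, a mitochondrial serine enzyme on the other strand, and the strand setting of the counting is not given in the sources used here. Shmt2 measured 50.7, 41.1 and 35.4 CPM in normoxia with NaCl, 33.4, 44.2 and 23.7 in normoxia with lactate, 29.8, 32.7 and 21.1 in low oxygen with NaCl and 33.4, 31.6 and 34.2 in low oxygen with lactate. The Shmt2 groups with NaCl did not overlap, with low oxygen lower, and those with lactate overlapped; the part of shared reads in the Ndufa4l2 counts was not tested. The libraries held Ndufa4 at 66.9, 57.8 and 56.7 CPM in normoxia with NaCl, 52.3, 55.5 and 60.5 in normoxia with lactate, 35.9, 37.7 and 50.5 in low oxygen with NaCl and 39.0, 30.7 and 102 in low oxygen with lactate. Ndufa4, first assigned to complex I and now regarded as a subunit of complex IV, was at 50.5 CPM or below in 5 of 6 low oxygen libraries and at 52.3 CPM or above in all 6 normoxia libraries; the exception, at 102 CPM, is replicate 3 of low oxygen with lactate. In lactate its log2 fold change was 0.03 (edgeR adjusted p = 0.977) with all libraries and -0.69 (SE 0.16; edgeR adjusted p = 0.0495) without both. Per kilobase Ndufa4l2 made up 0.959% ± 0.488 (SD, n = 3) of the sum of the 2 genes in low oxygen with NaCl and 2.03% ± 2.70 in low oxygen with lactate.

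**Figure D5:**
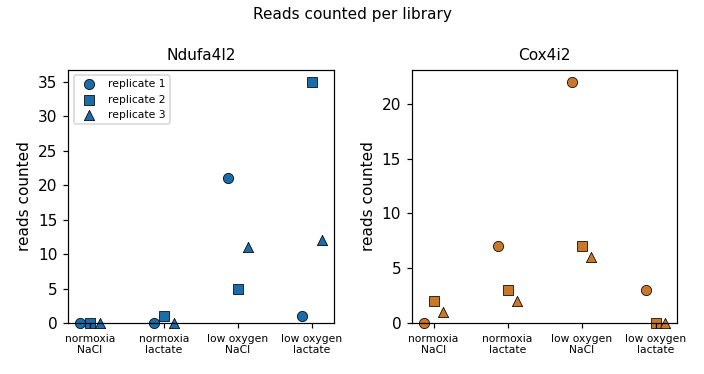
Reads counted in each library for Ndufa4l2 and Cox4i2, by group, with shape giving the replicate number. Ndufa4l2 has reads in all 6 low oxygen libraries and 1 read in normoxia; Cox4i2 has 35 reads in low oxygen with NaCl and 3 in low oxygen with lactate.

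Cox4i2, the low-oxygen isoform of complex IV subunit 4, had too few reads to be tested. It had 22, 7 and 6 reads in low oxygen with NaCl, 3, 0 and 0 in low oxygen with lactate, 0, 2 and 1 in normoxia with NaCl and 7, 3 and 2 in normoxia with lactate. After scaling by library size, low oxygen against normoxia gave a ratio of 11.5 with NaCl (exact 95% interval 3.63 to 58.6) and 0.495 with lactate (0.0896 to 1.83), for counting error only. In a fit with no filter on low counts, the interaction had an edgeR adjusted p of 0.939 and low oxygen with NaCl one of 0.914. For Cox4i1 the values were 697, 358 and 349 CPM in normoxia with NaCl, 355, 428 and 339 in normoxia with lactate, 347, 326 and 324 in low oxygen with NaCl and 275, 259 and 563 in low oxygen with lactate. Cox4i1 is the common isoform. Per kilobase Cox4i2 made up 0.167% ± 0.0752 (SD, n = 3) of the pair in low oxygen with NaCl, 0.0246% ± 0.0426 in low oxygen with lactate, 0.0133% ± 0.0146 in normoxia with NaCl and 0.0446% ± 0.0313 in normoxia with lactate.

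The isoforms of muscle and testis were near the limit of detection. In CPM, Cox6a2 was at 1.46, 1.16 and 0.606 in normoxia with NaCl, 0.624, 0.948 and 0.400 in normoxia with lactate, 0.367, 0.931 and 0.0643 in low oxygen with NaCl and 0.0688, 1.31 and 0 in low oxygen with lactate. Cox6a2, of heart and muscle, made up 0.362% ± 0.281 (SD over 12 libraries) of its pair with Cox6a1 per kilobase. Cox6b2 measured 1.10, 0.527 and 0.528 CPM in normoxia with NaCl, 1.06, 0.573 and 0.311 in normoxia with lactate, 0.571, 0.373 and 0.482 in low oxygen with NaCl and 0.344, 0.525 and 0.119 in low oxygen with lactate. The libraries held Cox6b1 at 217, 94.8 and 83.8 CPM in normoxia with NaCl, 117, 90.6 and 95.7 in normoxia with lactate, 84.4, 112 and 118 in low oxygen with NaCl and 69.1, 80.0 and 210.2 in low oxygen with lactate. Cox6b2, of testis, made up 0.328% ± 0.138 of its pair with the common Cox6b1. For Cox7a1 the values were 1.10, 0.632 and 0.684 CPM in normoxia with NaCl, 0.4995, 0.948 and 0.556 in normoxia with lactate, 0.979, 0.435 and 1.32 in low oxygen with NaCl and 1.38, 0.525 and 1.42 in low oxygen with lactate. In CPM, Cox7a2 was at 95.9, 41.1 and 31.8 in normoxia with NaCl, 32.3, 35.7 and 39.7 in normoxia with lactate, 33.7, 36.4 and 49.9 in low oxygen with NaCl and 35.3, 34.4 and 17.2 in low oxygen with lactate. Cox7a1, of muscle, made up 4.25% ± 2.997 of its pair with Cox7a2. In none of these pairs did low oxygen and normoxia separate in both media.

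Cox7a2l measured 267, 245 and 209 CPM in normoxia with NaCl, 237, 232 and 242 in normoxia with lactate, 271, 202 and 209 in low oxygen with NaCl and 226, 209 and 366 in low oxygen with lactate. Cox7a2l, a related protein that helps join complexes III and IV into supercomplexes, varied by 9.39% over the 10 libraries that did not stand apart. The libraries held Cox8a at 169, 119 and 122 CPM in normoxia with NaCl, 130.2, 102 and 113 in normoxia with lactate, 108, 106 and 117 in low oxygen with NaCl and 93.7, 79.1 and 192 in low oxygen with lactate. Cox8a, the common isoform of the smallest complex IV subunit, was lowest in replicates 1 and 2 of low oxygen with lactate. Of the other isoforms, Cox8b, of muscle, had 3 reads in all, in 1 library of normoxia with NaCl, and Cox7b2 and Cox8c had 0, where a count of 0 allows up to 3 reads.

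Assembly factors of complex I were low throughout and lowest in 1 library. Their summed level was 73.3, 57.7 and 54.1 CPM in normoxia with NaCl, 50.9, 65.7 and 58.1 CPM in normoxia with lactate, 51.3, 49.7 and 48.8 CPM in low oxygen with NaCl and 59.1, 53.4 and 18.8 CPM in low oxygen with lactate. All 3 low oxygen libraries with NaCl were below all 3 normoxia libraries with NaCl, and in lactate the groups overlapped. In replicate 3 of low oxygen with lactate 7 of the 8 were at their lowest of all libraries. So were 36 of all 85 tested members, and the count was not made for all genes.

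Genes around the set were described from lists. Genes of complex II and cytochromes c and c1, parts of the chain that the symbols do not cover, gave a median of -0.29 in low oxygen without lactate and 0.04 with lactate, with 0 of 6 called in any comparison. Without both libraries that stood apart these medians were -0.14 and -0.24, and Sdhc, a membrane subunit of complex II, was called lower in low oxygen with lactate against either normoxia group. Of 38 assembly factors outside the naming rule 0 were called, with medians of -0.06 and -0.09; without both libraries Coa3 and Cox10, which act on complex IV, were called lower in the same pair of comparisons. The 13 mitochondrially encoded subunits had medians of -0.38 and -0.63 with 0 called, and 0.15 and -0.08 without both libraries. For low oxygen and lactate together their median turned from -0.75 to 0.36, with all 13 positive and mt-Nd1 called higher. Of 12 tested nuclear regulators of mitochondrial genes, such as Nrf1, Gabpa and Tfam, 0 were called.

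Against this, 3 of 11 oxygen-linked regulators of mitochondrial metabolism were called higher in low oxygen in both media, and 0 were called lower. Of all genes, 0.281% were called without lactate and 0.226% with lactate. Fold changes were negative in 5 of the 11 without lactate and in 2 with lactate. Pdk1, a kinase that inhibits pyruvate dehydrogenase, was higher by a log2 fold change of 2.34 (SE 0.24, edgeR adjusted p = 0.00103) without lactate. With lactate it was higher by 2.10 (SE 0.24, edgeR adjusted p = 0.00311). Ak4, a mitochondrial adenylate kinase, and Bnip3, a receptor for the removal of mitochondria, were the others, at 4.70 (SE 0.54) and 2.49 (SE 0.36) without lactate.

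The profile of the members was set beside those of other genes of at least 10 CPM. Over the 12 libraries the genes whose log2 CPM was most correlated with the mean log2 CPM of the subunits were Ybx1 (Pearson r = 0.97), Psmb6, Ap2m1, Rpl36al and Commd1, of 8627 searched, and the libraries that stand apart weigh on this. Over the other 10 libraries they were Dmac1 (r = 0.97), Ddt, Hadh, Ssu72 and Scarb2, of 8608, with no gene in both lists. These are descriptions over libraries that share their scaling, and no test was made.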

How the data were processed

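RNA of 12 libraries in 4 groups of 3 was sequenced by the authors on an Ion Proton instrument. The deposited table holds whole-number read counts per Ensembl gene; BWA, HTSeq and the mouse build mm9 are named in the submitters' processing notes, with versions, annotation release and strand setting not given in the sources used here. Symbols were matched for 32897 of 37620 identifiers. Near copies and overlapping genes can share reads, and exons of 26 members overlap those of another gene, so their counts are uncertain. Lengths and symbols are from a GRCm38 annotation, and no coordinate was moved between builds.

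Counts were tested with edgeR 4.0.16 in R 4.3.3 (filterByExpr, TMM, quasi-likelihood F test, 1 mean per group, adjusted p threshold 0.05 over all 14616 genes). The method was tested on simulated data. Alternatives were DESeq2 1.42.0, limma 3.58.1 (voom, with and without library quality weights), upper-quartile and RLE size factors, other filters, only the groups compared, the library number as a block, each library left out, and both libraries that stood apart left out. Same-numbered libraries deviated together in low oxygen without lactate, with correlations of 0.14, 0.40 and 0.19, so the numbers were taken to pair them there. This pairing is an assumption, as differently numbered libraries were not compared and the labels do not state it. In each other contrast at least 1 of 3 pairs was at or below 0.1.

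Members and gene lists were chosen with earlier results of these data known. Values in all libraries are given for isoform pairs, for the member with the smallest p per complex in low oxygen without lactate and in lactate in normoxia, and for the 2 members highest per length in each complex, of which 1 is not reported here. Members called only in an alternative, Uqcr10, and the count ratios of the low-oxygen isoforms were added after values were seen. Intervals and the floor of 3 counts cover counting error only.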

Additional observations from a re-analysis of the deposited data

How the results depend on the processing

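Each value that answers a comparison was set beside its value in each alternative. Of these pairs, 788 stayed within the limits set for an unchanged value and 34 moved. The 788 include counts of 0 that stayed at 0. The limit for medians used the spread within groups over all 12 libraries, which the 2 that stood apart widen. Of the pairs for other values, 364 stayed the same, 17 became stronger and 16 reversed. The number of members called in low oxygen without lactate went from 0 to 2 with quality weights and to 3 with the replicate block and without replicate 3 of low oxygen with lactate. With lactate it went from 0 to 1 with DESeq2, 3 with quality weights, 1 with that replicate block and 5 without both libraries that stood apart. For low oxygen and lactate together it went from 0 to 3 with no filter, 11 with DESeq2, 4 with quality weights, 19 with that replicate block, 5 without both and between 0 and 7 without 1 library. The replicate block on all libraries called 0 members in each contrast. It changed no other call.

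Median log2 fold changes depended on replicate 1 of normoxia with NaCl. In low oxygen without lactate the members' median was -0.14 without both, -0.19 with quality weights and from -0.53 to -0.14 without 1 library; complex I was at -0.11 and complex III at 0.011 without both, ranging from -0.56 to -0.11 without 1 library and from -0.53 to 0.012 without 1 library. For lactate in normoxia complex I was at -0.052 and complex III at 0.10 without both, ranging from -0.49 to -0.052 without 1 library and from -0.45 to 0.10 without 1 library. For low oxygen and lactate together the members ranged from -0.54 to -0.18 without 1 library and complex I from -0.61 to -0.11 without 1 library, and complex III was at -0.22 without both. The interaction's median was 0.039 with quality weights and -0.069 without both over members, ranging from 0.019 to 0.42 without 1 library; it was 0.0076 with quality weights and -0.17 without both in complex I, and -0.079 in complex IV and 0.0031 in complex V without both.

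Upper-quartile scaling moved the median of all genes by -0.12 to -0.13 in contrasts with low oxygen with lactate. In low oxygen with lactate, Atp5g1 turned from 0.19 to -0.10 with upper-quartile scaling, -0.26 with limma-voom, -0.69 with quality weights, -0.89 with the replicate block and without replicate 3 of low oxygen with lactate, -0.82 without both and between -0.82 and 0.52 without 1 library. Ndufa4 turned from 0.03 to -0.24 with upper-quartile scaling, -0.053 with the filter at 5 CPM, -0.26 with limma-voom, -0.61 with quality weights, -0.10 and -0.64 with the block on all libraries and without replicate 3, -0.69 without both, and between -0.69 and 0.33 without 1 library. Where no library was left out the cause was not tested.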
